A study of Mus musculus with 23 samples.

Results

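The comparison described here is that of JIB-04 with vehicle in hearts of calcineurin transgenic mice (CnATg) at postnatal day 45, and it rests on 6 of the 23 RNA sequencing libraries of the study, taken by their sample titles. CnATg mice given JIB-04 and CnATg mice given vehicle had 3 libraries each. Per the labels, all mice were C57BL/6, mice on the drug received 50 mg/kg, 3 doses to the week, and in the CnATg mice of this age treatment with drug or vehicle began at week 4. 2 other pairs of groups, which share no library with these 6, were used to see where the effect differs. They were WT hearts on JIB-04 and on vehicle at day 45, with 3 libraries each, and CnATg hearts on JIB-04 and on vehicle at day 77, with 4 libraries each and treatment from week 5. WT hearts on JIB-04 at day 77, with 3 libraries, served only to pick the genes changed by the transgene. The labels do not say that each library was a separate mouse, so p-values measure the spread between these samples, which may be technical.

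Calcineurin is a phosphatase that is activated by calcium and calmodulin. It removes phosphate from NFAT transcription factors, which then enter the nucleus and act with GATA4 and MEF2 on genes of cardiac growth. In CnATg mice an active form of its catalytic subunit is driven by the alpha-myosin heavy chain promoter in heart muscle cells, and the heart enlarges and then fails. JIB-04 is a small-molecule inhibitor of Jumonji histone demethylases, enzymes that use iron and 2-oxoglutarate to take methyl groups off histone lysines.

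At day 45 almost no gene could be called different between CnATg hearts on JIB-04 and CnATg hearts on vehicle. Of 12697 genes tested, 1 passed an adjusted p under 0.05 in limma (0.00788%), the 168-base pseudogene Gm11382, which was listed at 0 in every JIB-04 library. No protein-coding gene passed, and the next smallest adjusted p was 0.9957. Ppp3ca, whose reads include those of the transgene, and the hypertrophic markers Myh7, Nppa and Nppb had JIB-04 libraries that overlapped the vehicle libraries. Genes named by rule for the size of their difference included Scd4, Zfp169 and Chrna2 higher on JIB-04, and Prnd, Cacng6 and Aqp1 lower.

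Levels are given as FPKM, the fragment number scaled to transcript length and library size, and differences as JIB-04 minus vehicle on the log2(FPKM + 1) scale, which understates the change of genes near 1 FPKM. A gene was tested when 3 or more of the 6 libraries held it at 1 FPKM or above. Of the genes tested, 11899 reached it in all 6, whereas 7 did so in the 3 JIB-04 libraries and no vehicle library, and 19 in the 3 vehicle libraries and no JIB-04 library. A further 12109 features were above 0 but not tested, and 18348 were at 0 in all 6.

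The genotype labels were borne out by Ppp3ca. This gene, which encodes the catalytic subunit used for the transgene, stood at 1757, 1597 and 1987 FPKM in the CnATg JIB-04 libraries and at 1559, 1720 and 1574 FPKM in the CnATg vehicle libraries. WT libraries of the same age had 23.6, 25.3 and 24.8 FPKM on JIB-04 and 24.5, 29.0 and 25.3 FPKM on vehicle. The drug groups overlapped in the transgenic hearts, and no WT library came near them. All 8 heart muscle markers were measured, and their summed level ran from 14420 to 15570 FPKM on JIB-04 and from 13960 to 15460 FPKM on vehicle. Depth is known only relative to the mean library and was 0.957 to 1.164 on JIB-04 and 1.104 to 1.268 on vehicle. By Xist and Ddx3y, 2 of the 3 JIB-04 and 1 of the 3 vehicle libraries were male. The first principal component of the 6 libraries held 26.4% of the variance and separated these 3 males from the 3 females, not the drug groups. The median gene differed between libraries by 0.102 to 0.116 (log2) within JIB-04, by 0.112 to 0.116 within vehicle and by 0.102 to 0.123 between the groups.

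Gm11382 is annotated as an unprocessed pseudogene on chromosome 13 beside the Serpinb9 family of protease inhibitors. It is shown in full because it was the single call and to show how short it is. GENCODE M21 places its transcript at chr13:32938513-32938691 on the minus strand of GRCm38 (179 bases), and the deposited files at 32938524 to 32938691.
Gm11382: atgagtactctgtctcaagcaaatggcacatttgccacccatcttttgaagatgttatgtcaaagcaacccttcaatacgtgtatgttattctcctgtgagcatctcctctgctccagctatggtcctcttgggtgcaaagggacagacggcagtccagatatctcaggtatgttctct
Of the 155 words of 25 bases in this sequence, 26 also occur in GENCODE M21 transcripts of Serpinb9 or Serpinb9b, so that some fragments could have come from either.

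Gm11382 was listed at 0 FPKM in all 3 JIB-04 libraries, against 36.1, 54.25 and 29.8 FPKM in the vehicle libraries. Its difference on the log2(FPKM + 1) scale was -5.31 (SE 0.16, limma adjusted p = 2.04e-08). Among the day-45 libraries only those of CnATg hearts on vehicle varied, so the SE shared by the groups understates their spread. Relative to WT hearts, where all 6 libraries were listed at 0, the difference is the same number and no second result (limma adjusted p = 9.83e-07). The feature passed the filter only through the vehicle libraries. In CnATg hearts at day 77 it was above 0 in 2 of the 4 JIB-04 libraries, at 126.5 and 46.7 FPKM, and in 1 of the 4 vehicle libraries, at 44.8 FPKM. The feature was thus on or off in single libraries, with no order between drug and vehicle at the later age. The same on-or-off pattern was seen in a small part of all short features, tested or not, and more often than in longer ones. A feature was counted when it was listed at 0 in 1 or more of the 6 libraries and at 10 FPKM or more in another. That held for 39 of all 6894 features of at most 300 bases. Of the 6894 only 84 were tested, and the share among those 84 was not counted. It also held for 5 of 36260 longer features, namely Ddx3y, Eif2s3y, Sln, mt-Atp6 and mt-Co3. With features of at most 300 bases left out, no gene passed the adjusted threshold, and 551 had an unadjusted p under 0.05.

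**Figure D1:**
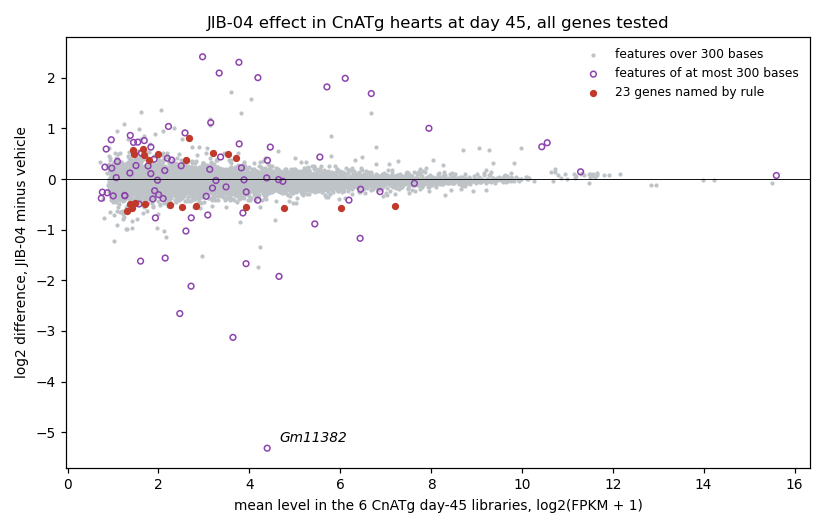
Log2 difference (JIB-04 minus vehicle, vertical axis) of each of the 12697 genes tested against its mean level in the 6 CnATg day-45 libraries (horizontal axis, log2(FPKM + 1)). Grey points are features over 300 bases, open purple circles features of at most 300 bases and red points the 23 genes named by the rule below; Gm11382 lies alone at -5.31 and the short features spread far more widely than the rest.

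The intervals left little room for large differences in most expressed genes. The median half-width of the 95% interval was 0.22 (log2), and the whole interval lay within 0.5 either side of 0 for 85.3% of the genes tested and within 1 for 97.7%. Among the 5825 genes with a mean of at least 10 FPKM, 93.3% had an interval within 0.5. Just 36 genes differed by more than 1 on the log2(FPKM + 1) scale, which understates the change of genes near 1 FPKM. Of these 36, 20 were features of at most 300 bases and 16 were lower on JIB-04. In 11 of the 36 the groups did not overlap, beside 11.2% of all genes tested. These were 8 gene models or pseudogenes, Gm11382 among them, and the noncoding RNAs Rnu2-10, Rmrp and Rn7sk. Those noncoding RNAs lay higher on JIB-04, with an unadjusted limma p of 0.064, 0.25 and 0.36. Sln, Myl7, Xist, Ddx3y and Eif2s3y were among those of the 36 whose groups overlapped.

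At an unadjusted p under 0.05, 552 genes (4.35%) differed, 112 higher (0.882%) and 440 lower (3.47%) on JIB-04. The 3 JIB-04 and 3 vehicle libraries did not overlap in 1419 genes (11.2%), 297 higher (2.34%) and 1122 lower (8.84%). This lean to the lower side went with the scale of the deposited values, on which the median difference over all genes was -0.035 and 64.9% of genes were below 0. After median-ratio scaling 705 genes lay higher and 557 lower without overlap, and of the genes at an unadjusted p under 0.05 the share lying higher was 52.3% on that scale and 48.4% with quantiles made equal, against 20.3% as deposited. The sign of small differences is therefore read below beside these values.

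Genes whose groups did not overlap were named by a rule, by the size of their difference. It took the largest differences each way, 11 higher and 12 lower genes, among genes with an unadjusted p under 0.05, no overlap between the groups and a mean of at least 2 FPKM in the group with more, and it passed over unnamed gene models, pseudogenes, Y-linked genes and Xist. It chose from 62 genes higher and 256 lower. The rule used the day-45 values, which are therefore given as a description, and all 23 genes had an adjusted p of 0.9957.

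The 11 higher genes were of mixed function. Scd4, a stearoyl-CoA desaturase that makes monounsaturated fatty acids, stood at 6.06, 9.26 and 6.37 FPKM on JIB-04 and at 3.62, 3.36 and 3.81 FPKM on vehicle, a log2 difference of 0.82 (SE 0.18). Apod, which encodes the lipid carrier apolipoprotein D, stood at 11.9, 12.98 and 12.5 FPKM on JIB-04 and at 8.76, 8.40 and 8.65 FPKM on vehicle (0.49, SE 0.12). In both genes every JIB-04 library was above every vehicle library, more tightly in Apod, whereas 1 library, JIB-04 replicate 2, stood out in Scd4. Acer2, a ceramidase that frees sphingosine from ceramide, differed by 0.52. The other higher genes were Zfp169 (0.59), Chrna2 (0.58), a nicotinic acetylcholine receptor subunit, Isg20 (0.49), an interferon-induced exonuclease, Fxyd7 (0.49), a regulator of the sodium pump, Homez (0.48), Sirt7 (0.41), a nucleolar deacetylase, Ift80 (0.38), a ciliary transport protein, and Tppp (0.38), which promotes tubulin assembly.

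The 12 lower genes included several that are scarce in WT hearts. Fzd9, a receptor for Wnt ligands, stood at 10.04, 13.9 and 10.7 FPKM on JIB-04 and at 16.5, 17.1 and 17.6 FPKM on vehicle, a log2 difference of -0.54 (SE 0.10). Nmrk2, the muscle kinase that turns nicotinamide riboside into an NAD precursor, stood at 25.03, 20.7 and 16.8 FPKM on JIB-04 and at 31.8, 31.3 and 30.2 FPKM on vehicle (-0.57, SE 0.13). In both genes the vehicle libraries lay close together and the JIB-04 libraries were spread below them. WT hearts of the same age had little of either. Fzd9 averaged 0.849 ± 0.07 FPKM on JIB-04 and 0.663 ± 0.097 FPKM on vehicle in WT hearts (SD, n = 3 each), and Nmrk2 averaged 2.60 ± 0.25 FPKM on JIB-04 and 2.48 ± 0.49 FPKM on vehicle.

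Iqgap2, a scaffold of the actin cytoskeleton, stood at 3.02, 4.46 and 3.54 FPKM on JIB-04 and at 6.51, 4.67 and 6.22 FPKM on vehicle (-0.54, SE 0.14). Cd24a, a small surface glycoprotein, stood at 2.98, 2.60 and 3.30 FPKM on JIB-04 and at 5.51, 4.32 and 4.08 FPKM on vehicle (-0.50, SE 0.11). Aqp1, the water channel of capillary endothelium, stood at 40.8, 53.5 and 59.2 FPKM on JIB-04 and at 83.3, 71.0 and 73.8 FPKM on vehicle (-0.58, SE 0.14). Of these 3 genes, Iqgap2 had the groups closest to each other. The remaining lower genes were Prnd (-0.63), a prion-like protein, Cacng6 (-0.58), a calcium channel gamma subunit, Rrad (-0.53), a small GTPase that restrains L-type calcium channels, Mdk (-0.53), the growth factor midkine, Il33 (-0.49), an alarmin cytokine, Glmn (-0.49) and Bcl2a1b (-0.47), a Bcl2-family survival protein. Bcl2a1b has near-identical copies in the mouse genome, so its value is uncertain.

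How the 23 genes differ with the transgene was read at day 77, in libraries that this comparison does not hold. In CnATg hearts against WT hearts, both on JIB-04, 7 of them were higher and 4 lower past the adjusted threshold in limma, where 45.8% of all genes passed (22.5% higher and 23.4% lower). Fzd9 (log2 3.30), Nmrk2 (2.64), Iqgap2 (1.35), Cd24a (0.94) and Mdk (0.84) rose with the transgene and lay lower on JIB-04 at day 45. Apod (1.21) and Homez (0.43) rose with the transgene and lay higher on JIB-04. Aqp1 (-1.26) and Prnd (-0.74) fell with it and lay lower on JIB-04, and Zfp169 (-0.62) and Tppp (-0.43) fell with it and lay higher.

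**Figure D2:**
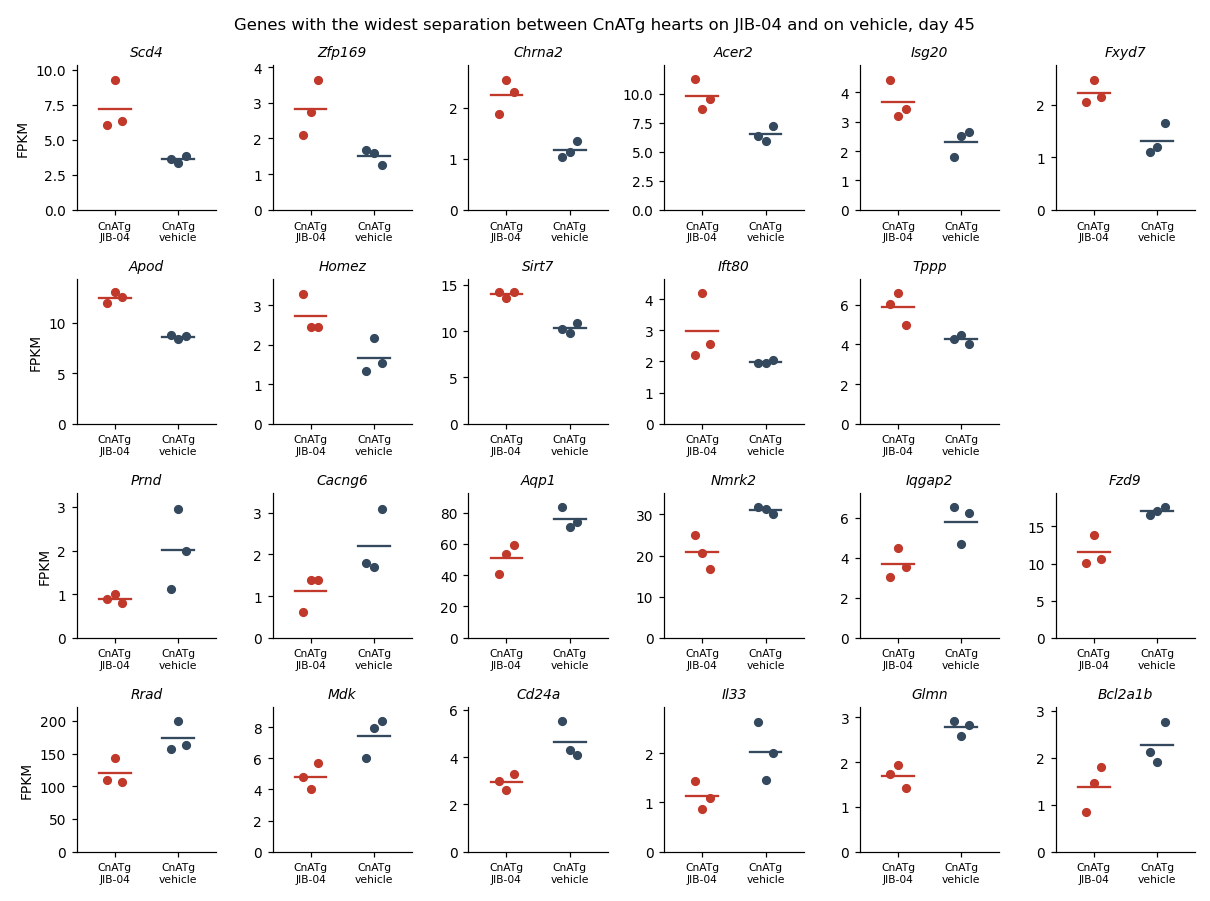
Level in FPKM (vertical axes, each from 0) of the 23 genes named by the rule, in the 3 JIB-04 and the 3 vehicle libraries of CnATg hearts at day 45; points are libraries and bars group means. The groups do not overlap in any panel, as the rule demands, and they almost touch in Il33 and Iqgap2.

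The same drug in other hearts gave these genes only partly the same sign. In CnATg hearts at day 77, 6 of the 11 higher genes lay higher and 11 of the 12 lower genes lay lower, 17 of 23 with the sign of day 45, where 58.8% of all genes tested kept theirs and 61.2% were lower at that age. 3 of the 23 had an unadjusted p under 0.05 there, beside 1078 of all genes (8.49%), and all 3 kept their sign. Prnd averaged 0.525 ± 0.225 FPKM on JIB-04 and 1.87 ± 0.776 FPKM on vehicle at day 77 (SD, n = 4 each), a log2 difference of -0.89 with a limma adjusted p of 0.3387. Cd24a averaged 3.60 ± 0.656 FPKM on JIB-04 and 5.27 ± 1.40 FPKM on vehicle (-0.43, adjusted p = 0.3922). Apod averaged 10.5 ± 2.07 FPKM on JIB-04 and 7.76 ± 2.01 FPKM on vehicle (0.40, adjusted p = 0.4443). These 3 genes had differences of like size at both ages. Fzd9 differed by -0.05 at day 77 (95% interval -0.35 to 0.24), much nearer to 0 than at day 45.

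In WT hearts at day 45, 7 of the 11 higher and 6 of the 12 lower genes had the same sign as in CnATg hearts, as did 50.9% of all genes tested. No gene passed the adjusted threshold for the drug in WT hearts, where 535 had an unadjusted p under 0.05 (4.21%). Chrna2 differed by 0.45 in WT hearts and Scd4 by 0.39, beside the day-45 CnATg values above. The test of the difference between the genotypes called Gm11382 alone (0.00788%), with 465 genes at an unadjusted p under 0.05 (3.66%), and it called none of the 23. The nearest of them was Fzd9, whose effect in CnATg minus that in WT was -0.70 (95% interval -1.02 to -0.37, limma adjusted p = 0.9428). This contrast holds the CnATg day-45 values by which the 23 genes were chosen, so its size and interval are descriptions for them. WT hearts had under 1 FPKM of Fzd9, where the scale understates a change. The test of the difference between day 45 and day 77 called no gene in limma, with 425 at an unadjusted p under 0.05 (3.35%). Across the 12697 genes the day-45 effect in CnATg hearts had a Spearman correlation of 0.16 with that at day 77 (Pearson 0.05) and of 0.05 with that in WT hearts (Pearson 0.15). Genes are not independent replicates and share the library in which they were measured, so these values are descriptions.

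**Figure D3:**
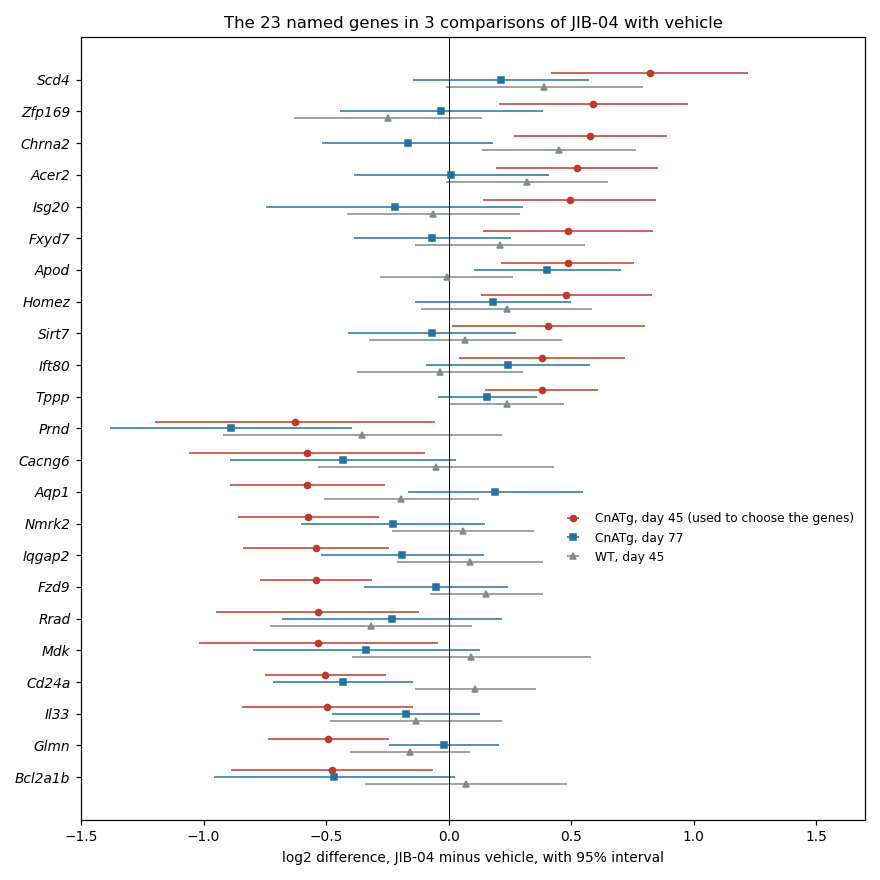
Log2 difference (JIB-04 minus vehicle, horizontal axis, with 95% intervals from limma) of the 23 named genes in CnATg hearts at day 45 (red circles, used to choose them), CnATg hearts at day 77 (blue squares) and WT hearts at day 45 (grey triangles). Away from the hearts that chose them most intervals cross 0; Prnd, Cd24a and Apod keep their side at day 77, and Chrna2 and Tppp theirs in WT hearts.

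The remaining members were read in lists by role. No list had a member past the adjusted threshold. A member is said to separate the groups where its 3 JIB-04 and 3 vehicle libraries did not overlap. Over all genes tested 2.34% did so on the higher side and 8.84% on the lower side, the measure for such counts. Of the genes tested 34.9% lay higher and 64.9% lower on JIB-04, which is the measure for the counts by sign. Medians are to be set beside -0.035 for all genes. Since each library is heart RNA from mixed cell types, fewer cells of a type and less RNA per cell cannot be told apart.

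Of the 18 genes of the calcineurin and NFAT pathway 7 lay higher and 11 lower, with a median of -0.02. All 18 had a 95% interval within 0.5. Rcan1, the feedback inhibitor that NFAT induces, stood at 87.5, 79.9 and 66.8 FPKM on JIB-04 and at 93.8, 75.3 and 68.7 FPKM on vehicle, so that the groups overlapped (-0.02, 95% interval -0.26 to 0.23). 2 members separated the groups at an unadjusted p under 0.05. They were the calcineurin subunit Ppp3cb, with 24.7, 27.2 and 26.4 FPKM on JIB-04 and 28.9, 28.7 and 28.3 FPKM on vehicle (-0.13), and the NFAT kinase Dyrk1a, with 21.6, 21.96 and 19.9 FPKM on JIB-04 and 19.1, 19.5 and 19.3 FPKM on vehicle (0.12).

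The 14 fetal and hypertrophic genes, which the stressed heart re-expresses, lay lower in 11 and higher in 3, with a median of -0.12, and 1 of them, Nmrk2, separated the groups. The median was -0.03 without vehicle replicate 1, the library with high atrial Myl7, itself a member of the list, and after median-ratio scaling 6 lay higher and 8 lower. Myh7, the slow myosin heavy chain, stood at 1634, 1702 and 1549 FPKM on JIB-04 and at 1651, 1687 and 1638 FPKM on vehicle, an overlap with an interval of -0.25 to 0.20. Nppa and Nppb, the natriuretic peptides, varied so much between libraries that their intervals were -0.56 to 0.69 and -0.998 to 0.58. The interval of Myh7 leaves out a fall by more than 0.25, whereas those of Nppa and Nppb are too wide to say so of them. WT hearts had 92.7 ± 12.4 FPKM of Myh7 on JIB-04 and 82.5 ± 11.97 FPKM on vehicle (SD, n = 3 each).

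The same question was put to all genes that differ between CnATg and WT hearts at day 77, both on JIB-04. They had a limma adjusted p under 0.05 and a difference of at least 1 on the log2(FPKM + 1) scale. These were 440 higher genes (3.47%) and 300 lower genes (2.36%), chosen from libraries outside the day-45 comparison. At day 45 the 440 genes raised by the transgene had a median JIB-04 difference of -0.04, with 267 lower on JIB-04 (60.7%), and the 300 genes lowered by it had a median of -0.01, with 167 lower (55.7%). Over all genes tested the median was -0.035 and 64.9% lay lower. The interval was within 0.5 for 63.4% of the raised and 70.0% of the lowered genes.

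**Figure D4:**
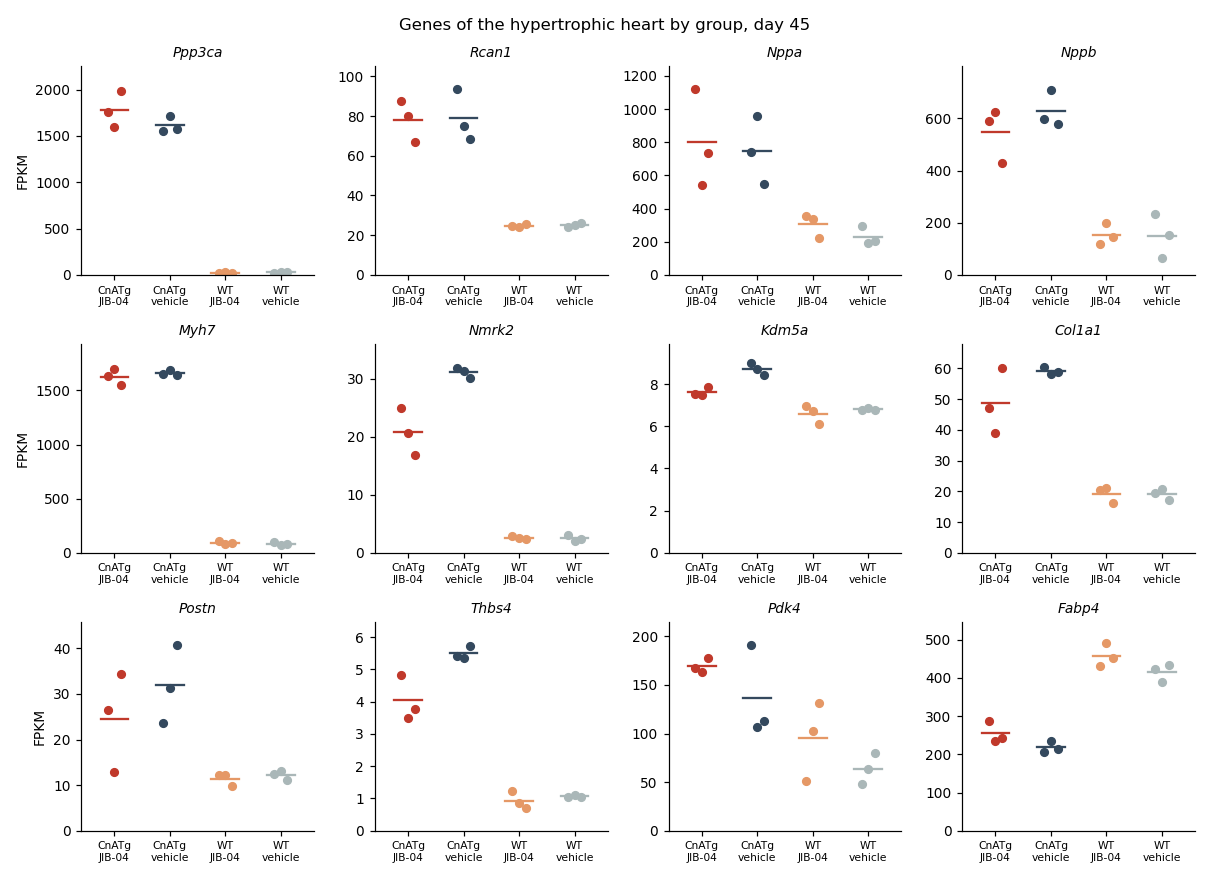
Level in FPKM (vertical axes, each from 0) of 12 genes of the transgenic heart in the 4 day-45 groups, CnATg on JIB-04, CnATg on vehicle, WT on JIB-04 and WT on vehicle; points are libraries and bars group means. Ppp3ca, Rcan1 and Myh7 differ between genotypes and overlap between drug and vehicle, while Nmrk2, Kdm5a, Thbs4 and Fabp4 have CnATg drug groups that do not overlap.

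Of the 19 Jumonji demethylases tested, the enzyme family that JIB-04 is directed at, 6 lay higher and 13 lower. Their median was -0.06 in CnATg hearts at day 45, 0.05 in CnATg hearts at day 77 and -0.04 in WT hearts. With any 1 library left out the day-45 CnATg median was -0.08 to -0.02, a range that holds the -0.035 of all genes. After median-ratio scaling it was -0.02, beside 0.00 for all genes. Kdm5a, which removes methyl groups from lysine 4 of histone H3, stood at 7.53, 7.49 and 7.86 FPKM on JIB-04 and at 9.01, 8.74 and 8.45 FPKM on vehicle (-0.17, 95% interval -0.31 to -0.04). Phf8, a demethylase of other histone lysines, stood at 3.41, 3.47 and 3.26 FPKM on JIB-04 and at 4.21, 3.82 and 3.66 FPKM on vehicle (-0.16). In both genes every JIB-04 library was below every vehicle library, by little. Kdm2b, a demethylase of lysine 36 of histone H3, lay the other way without overlap, at 5.58, 5.695 and 5.695 FPKM on JIB-04 and at 4.71, 5.21 and 5.05 FPKM on vehicle (0.15, 95% interval -0.12 to 0.43). Over all genes 8.84% lay lower and 2.34% higher without overlap. At day 77 Kdm5a differed by 0.11 and Phf8 by 0.00. Kdm4a, Kdm3a, Kdm5b and Kdm6b had overlapping groups and differences between -0.15 and 0.10. Of 21 other JmjC proteins and 2-oxoglutarate oxygenases, such as the HIF prolyl hydroxylases, 11 lay higher and 10 lower with a median of 0.01, and of 25 histone methyltransferases 9 lay higher and 16 lower with a median of -0.04. The hypoxia response, which those prolyl hydroxylases hold down, had 7 of 13 genes higher and 5 lower, and Vegfa was at 147, 139 and 140 FPKM on JIB-04 and at 118, 149 and 162 FPKM on vehicle.

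All 14 PPAR-responsive lipid genes lay higher on JIB-04, with a median of 0.13, and 3 of them (Fabp3, Fabp4 and Pnpla2) separated the groups. Fabp4, a fatty-acid binding protein of capillaries and fat cells, stood at 286, 236 and 244 FPKM on JIB-04 and at 206, 235 and 214 FPKM on vehicle (0.22, SE 0.08). Pnpla2, the triglyceride lipase of lipid droplets, stood at 202, 220 and 197 FPKM on JIB-04 and at 193, 181 and 190 FPKM on vehicle (0.13, SE 0.06). The groups are close in both genes, with the highest vehicle library just under the lowest JIB-04 library. Pdk4, the kinase that blocks glucose entry into the citric acid cycle, stood at 167, 164 and 178 FPKM on JIB-04 and at 192, 106 and 113 FPKM on vehicle, an overlap owed to 1 vehicle library (0.36, 95% interval -0.33 to 1.05). The list's median stayed between 0.11 and 0.17 with any 1 library left out, and without JIB-04 replicate 2 it had 12 genes higher and 2 lower. In WT hearts 12 of the 14 lay higher with a median of 0.14, and in CnATg hearts at day 77 9 of 14 with a median of 0.06. Fabp4 differed by -0.33 at day 77 (limma adjusted p = 0.3387), the other sign.

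Of 24 enzymes of fatty-acid oxidation 22 lay higher and 2 lower with a median of 0.07, which was 0.01 with 15 higher and 9 lower without JIB-04 replicate 2. All 24 lay higher in WT hearts, and 7 lay higher and 17 lower in CnATg hearts at day 77. Of 31 nuclear-encoded members of the respiratory chain, ATP synthase and citric acid cycle 16 lay higher and 15 lower with a median of 0.00, and all 31 had an interval within 0.5. Of 19 glycolytic genes 18 lay lower, with a median of -0.06, and 7 of them separated the groups, beside 8.84% of all genes on the lower side. Eno3, the muscle enolase, stood at 398, 391 and 390 FPKM on JIB-04 and at 407, 416 and 469 FPKM on vehicle (-0.13), with all JIB-04 libraries just below all vehicle libraries. After median-ratio scaling 7 of the 19 lay higher and 12 lower. All 17 adult contractile genes lay higher, by 0.00 to 0.15, also after median-ratio scaling and without JIB-04 replicate 2. Their median was 0.05, and 0.02 with quantiles made equal or without vehicle replicate 3, beside a standard deviation between replicates of 0.06. In CnATg hearts at day 77, 11 lay higher and 6 lower. Tcap, the titin cap protein, had 1710, 1587 and 1724 FPKM on JIB-04 and 1558, 1523 and 1482 FPKM on vehicle (0.14). Of 22 calcium handling and ion channel genes 11 lay higher and 11 lower, with Atp2a2, the calcium pump of the sarcoplasmic reticulum, at 0.07 (95% interval -0.07 to 0.22).

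Matrix and fibrosis genes lay lower in 31 of 32, with a median of -0.20, and much of this came from 1 library. The summed level of the list was 1098, 842.8 and 1291 FPKM in the 3 JIB-04 libraries and 1158, 1237 and 1289 FPKM in the 3 vehicle libraries, so that JIB-04 replicate 2 was low and the groups overlapped. Without that library 21 lay lower and 11 higher, with a median of -0.05. 2 of the 32 members separated the groups, both on the lower side, beside 8.84% of all genes there. Thbs4, a matrix glycoprotein of the loaded heart, stood at 4.84, 3.50 and 3.78 FPKM on JIB-04 and at 5.42, 5.36 and 5.73 FPKM on vehicle (-0.38, SE 0.12), and Col15a1, a basement membrane collagen, stood at 37.2, 27.8 and 35.9 FPKM on JIB-04 and at 39.8, 45.5 and 38.9 FPKM on vehicle (-0.30, SE 0.13). Fibroblast markers, whose sum was 1158 to 1247 FPKM on JIB-04 and 1070 to 1219 FPKM on vehicle, were lower in 7 of 10 with 1 separating the groups; their part in the matrix values was not tested. In the TGF-beta pathway 10 of 21 lay higher and 11 lower, and Tgfbr3, a co-receptor, had 8.58, 8.61 and 9.70 FPKM on JIB-04 and 7.99, 7.20 and 7.57 FPKM on vehicle (0.21), beside 0.24 at day 77 and 0.17 in WT hearts.

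Cell cycle genes were near the lower limit of what was tested. Of 25 listed 14 passed the filter, and 13 of these lay lower with a median of -0.22. Birc5, the mitotic protein survivin, stood at 0.580, 0.616 and 0.779 FPKM on JIB-04 and at 1.52, 1.46 and 1.75 FPKM on vehicle (-0.63, SE 0.16). Mcm5, a subunit of the replicative helicase, stood at 0.572, 0.644 and 0.839 FPKM on JIB-04 and at 1.27, 1.33 and 1.28 FPKM on vehicle (-0.45, SE 0.10). Both genes were under 1 FPKM in every JIB-04 library and passed the filter only through the vehicle libraries, so their counts say nothing of the list. At day 77 Birc5 differed by -0.44 and Mcm5 by -0.20.

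The other response lists were mixed. Of 21 interferon response genes 14 lay lower with a median of -0.08, beside 20 of 21 and -0.53 at day 77. The day-45 median ran from -0.23 to 0.01 with 1 library left out and was 0.03 with sex as a covariate. Rsad2, the antiviral enzyme viperin, had 2.69, 2.24 and 2.29 FPKM on JIB-04 and 3.04, 3.14 and 3.22 FPKM on vehicle (-0.28), against -0.62 at day 77 and -0.29 in WT hearts. Of 11 glucocorticoid-responsive genes 8 lay higher, beside all 11 in WT hearts and all 11 at day 77. In that list Sult1a1, a sulfotransferase, had 19.9, 18.4 and 21.3 FPKM on JIB-04 and 18.3, 14.97 and 16.7 FPKM on vehicle (0.24). Of 16 NRF2 and xenobiotic genes 11 lay higher, and Srxn1, which repairs peroxiredoxins, had 22.3, 18.2 and 19.2 FPKM on JIB-04 and 17.8, 16.9 and 12.1 FPKM on vehicle (0.35), against -0.25 at day 77 and -0.24 in WT hearts. The integrated stress and unfolded protein response had 7 of 18 higher, iron and metal handling 8 of 14, immediate early genes 6 of 11, the circadian clock 9 of 13, and atrophy and ubiquitin ligase genes 8 of 12. Among these, 1 gene had an unadjusted p under 0.05, the immediate early gene Egr1 (-0.43), whose groups overlapped.

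**Figure D5:**
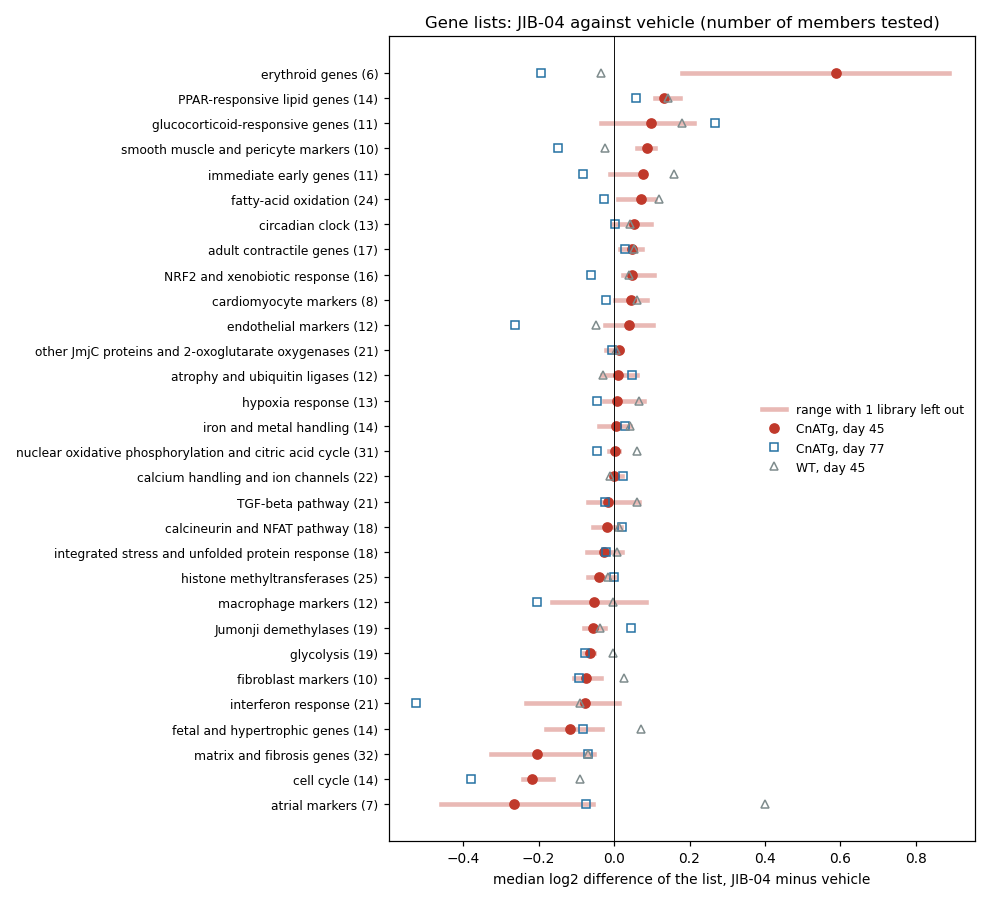
Median log2 difference (JIB-04 minus vehicle, horizontal axis) of each list with at least 6 members tested, their number in brackets, in CnATg hearts at day 45 (red circles), CnATg hearts at day 77 (blue squares) and WT hearts at day 45 (grey triangles); pale bars give the range with 1 of the 6 day-45 CnATg libraries left out. The erythroid, atrial, matrix and interferon bars are wide. Narrower bars clear of 0 include PPAR-responsive lipid, smooth muscle and pericyte, and adult contractile genes on the higher side. On the lower side they include glycolysis and the Jumonji demethylases, the latter with a bar that holds the median of -0.035 for all genes. The cell cycle list holds genes that passed the filter only through the vehicle libraries.

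Erythroid and atrial markers moved with single libraries. The 6 erythroid genes tested lay higher on JIB-04, with a median of 0.59 that was 0.18 without JIB-04 replicate 1. The alpha-globin gene Hba-a1 stood at 1174, 619.8 and 439.5 FPKM on JIB-04 and at 448.1, 746 and 294.3 FPKM on vehicle, and the groups overlapped. Of 7 atrial markers 6 lay lower with a median of -0.27, which was -0.06 without vehicle replicate 1. Sln, an atrial inhibitor of the calcium pump, stood at 1.63, 0.849 and 0 FPKM on JIB-04 and at 36.25, 1.15 and 0.448 FPKM on vehicle, and Myl7, the atrial light chain, at 7.74, 4.01 and 2.80 FPKM on JIB-04 and at 82.7, 4.79 and 4.64 FPKM on vehicle. Vehicle replicate 1 alone was high in both. It also had the highest Pdk4 of the 6. The part of atrial tissue in other results was not tested. Endothelial markers lay higher in 7 of 12 and macrophage markers in 4 of 12. Smooth muscle and pericyte markers lay higher in 7 of 10, with a median of 0.09 that stayed between 0.06 and 0.11 with any 1 library left out. That median was -0.15 in CnATg hearts at day 77, with 9 of 10 lower, and -0.02 in WT hearts, with 7 lower. The endothelial markers lay lower in 11 of 12 at day 77 (median -0.26) and in 9 in WT hearts (median -0.05). Of the 8 T and NK cell markers and the 8 adipocyte markers none reached the filter. The adipocyte markers summed to 0.713, 0.159 and 4.11 FPKM on JIB-04 and to 0.485, 0.357 and 0.481 FPKM on vehicle, so that JIB-04 replicate 3 had the most. Their part in the Fabp4 values was not tested.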

How the data were processed

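Heart RNA was taken up in Trizol and sequenced from mRNA libraries without strand, per the labels' protocols, so overlapping and antisense genes cannot be told apart. The submitters' processing notes name STAR 2.7.1a, Picard, GATK 4.1.2, Cufflinks 2.2.1 and the GRCm38 genome; the annotation is not given in the sources used here. The files hold log2 FPKM as deposited, per the file headers, for 43154 features in each of 23 libraries; with no negative value and exact zeros they were read as log2(FPKM + 1) and used unchanged. FPKM was computed back from them. Depth in reads is unknown, so there is no counting interval, and precision comes from the replicates.

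mt-Atp6, mt-Atp8 and mt-Co3, listed at 0 in some libraries and among the highest in others, were left out. limma 3.58.1 in R 4.3.3 was fitted by group with an intensity trend to the 12 day-45 libraries, with a two-sided moderated test and Benjamini-Hochberg adjustment over 12697 genes (threshold 0.05). The difference from WT was a contrast in that fit. Day-77 contrasts came from the same model over all 23 libraries. The fits were tested on simulated data. The WT libraries on JIB-04 carry accession numbers apart from the rest, so that any batch and this group cannot be told apart, and the labels give no start week for them.

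Genes were named by the rule in the text, which took 12 each way (1 gene that met it is not reported here), by example genes set for each list, and as list members that separated the groups at an unadjusted p under 0.05. Egr1, Kdm2b, the genes named among the 36 that differed by more than 1 and those named in counts of 5 or fewer were chosen after their values were seen. The comparison, the lists and the rule were chosen with earlier results of these data known. Alternatives were other filters, pseudocounts, scalings and fits, sex as a covariate, a replicate block and leaving out each library; leaving out features of at most 300 bases was chosen after seeing the data. Sequence and locus of Gm11382 are from the GENCODE M21 transcripts and annotation.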

Additional observations from a re-analysis of the deposited data

Results flagged for a closer look

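Gm11382 was the single result in which the JIB-04 effect at day 45 differed between the genotypes by its own test in limma. The effect in CnATg minus that in WT was -5.31 on the log2(FPKM + 1) scale (limma adjusted p = 9.83e-07). With WT hearts at 0 throughout, this is the CnATg difference given above. The feature was listed at 0 in all 3 CnATg JIB-04 libraries and in all 6 WT libraries and was above 0 in all 3 CnATg vehicle libraries. Over the 23 libraries it was above 0 in 6, and it passed the filter only through the CnATg vehicle libraries. The feature is 168 bases long as deposited and shares 26 of its 155 words of 25 bases with Serpinb9 or Serpinb9b. In its length class 39 of 6894 features, tested or not, went between 0 and at least 10 FPKM among the 6 CnATg day-45 libraries. The part of its length in the result was not tested.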

How the results depend on the processing

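Read counts are not known, so what limits these results is 3 libraries a group, with the sexes uneven between them. The single call for the JIB-04 effect became 3 with no filter on low values (AC159477.1, Gm11382 and Gm12093) and 0 with features of at most 300 bases left out. The call for the difference from WT became 2 with no filter and 0 without short features, and the 0 calls for the difference from day 77 became 3 with no filter; the cause was not tested. With 1 library left out at a time, the JIB-04 effect had 1 to 2 calls (Atad3aos joined without CnATg vehicle replicate 2), the difference from WT 1 to 2 (Rps19-ps3 joined without WT vehicle replicate 1 and Atf7ip without WT vehicle replicate 2) and the difference from day 77 0 to 0. The median day-45 effect ran from -0.07 to -0.02 over genes raised by the transgene and from -0.04 to 0.01 over genes lowered by it. Under the other filters, pseudocount, scalings and fits that were run, these counts and medians did not leave their side of the threshold or the replicate spread. Of the list medians 388 values moved by less than the replicate spread and 20 by more, and of the single genes 1484 and 2, with no called value changing sign.

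Same-numbered JIB-04 and vehicle libraries had deviations from their group means that correlated by 0.06, -0.01 and 0.22, so the replicate numbers were not taken to pair the samples. With the replicate number as a block, 1 gene passed for the JIB-04 effect, 1 for the difference from WT and 0 for the difference from day 77, and 720 genes had an unadjusted p under 0.05 for the JIB-04 effect, against 552 without it.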
